A study of Mus musculus with 12 samples.

Results

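The expression of 10 genes of lymphocyte homing and adhesion was followed in stimulated CD4+ T cells: the chemokine receptors Ccr9 and Cxcr4, the adhesion molecule Mcam, the integrin chains Itga4, Itgal, Itgb1, Itgb2 and Itgb7, and the adhesion receptors Cd44 and Selplg. They were taken by symbol, 10 of the 39017 gene identifiers in the count table, and all 10 passed the filter on low counts that kept 14585 genes for testing. The list was drawn up with the Sry differences of these libraries known, so the Sry differences of the 10 genes are described here without a test. Comparisons of the sex chromosomes, and of the Sry difference between sex chromosome types, were tested.

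The cells came from SJL mice of a model in which the sex chromosomes and the gonads vary separately. All 4 groups were gonadectomized at 4 to 6 weeks of age, received carprofen (1.2 mg/mL) before surgery and 24 hours later and amoxicillin (50 mg/mL) in the drinking water for 7 days, and gave lymph nodes at 8 to 12 weeks. CD4+ T cells were isolated by magnetic negative selection, which removes other cells, and cultured with anti-CD3/CD28 beads for 36 hours before RNA was sequenced. Each group had 3 libraries. XX mice have no Sry and developed ovaries. XY- mice carry a Y chromosome that lacks Sry, the testis-determining gene, and also developed ovaries. XXSry and XY-Sry mice have the same sex chromosomes plus an autosomal Sry transgene, and developed testes. The promoter and the site of the transgene are not in the labels. In any comparison of Sry-carrying with other cells, the earlier gonad type and the transgene cannot be told apart. The labels do not say that libraries came from separate animals, so p-values cover only the spread among the libraries sequenced, part of which may be technical.

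A T cell leaves the blood in steps. It tethers and rolls through selectins and their ligands, chemokine receptors then switch its integrins to a tightly binding state, and the integrins hold it to the vessel wall. In mice, CCR9 answers to CCL25 of the small intestine and thymus, and the alpha4 beta7 integrin binds MAdCAM-1 on gut vessels, a pair known for steering T cells to the gut. MCAM (CD146) is an immunoglobulin-family adhesion molecule best known from endothelium, and in human blood it marks a subset of T cells rich in Th17 cells.

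Total counts ran from 11664186 to 16710188 per library, and XX replicate 3, with the smallest number, had a mitochondrial share of 5.01% where the other libraries had 2.27% to 2.87%. Sry was at 91.0 to 132 CPM (counts scaled to a common library size with TMM factors) in the 6 libraries labelled as carrying it and had 0 or 1 count in the other 6. Xist and Ddx3y followed the labels too. Genes that define CD4 T cells summed to 2956 to 3262 CPM in every library. Of the 14 markers of endothelium and pericytes, where MCAM is also made, 10 were under 1 CPM in all 12 libraries, and the list summed to 86.2 to 112 CPM without Sry and 85.0 to 131 CPM with it. That sum was mostly Pecam1, which T cells also make, at 78.3 to 124 CPM, with a log2 difference of 0.02 ± 0.09 with Sry (edgeR adjusted p = 0.94). Cdh5, which defines endothelium, was at most 0.801 CPM. Markers of plasmacytoid dendritic cells, which carry CCR9, summed to 297 to 499 CPM without Sry and 315 to 505 CPM with it. Most of that sum came from Irf8, at 221 to 415 CPM, and Bst2, at 57.9 to 81.6 CPM. Of the 9 markers 5 were under 1 CPM in all 12 libraries. The gene that defines these dendritic cells, Siglech, was at most 0.513 CPM, and Klk1 and Cd300c had no count. The part of other cells in the Ccr9 and Mcam values was not tested beyond these levels. In bulk RNA, fewer cells of a type and less RNA per cell cannot be told apart.

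Ccr9 lies at chr9:123678439-123784330 and Mcam at chr9:44134469-44142727, both on the plus strand of mm10 in GENCODE M21, and both are protein-coding genes of several exons. RefSeq promoter windows (GRCm38.p6, 250 bases before the start and 50 after) were found for 7 of the 10 genes, all but Itgal, Itgb2 and Selplg. The 250 upstream bases of Ccr9 (chr9:123766961-123767210) and Mcam (chr9:44134408-44134657) are shown because these genes had the largest Sry differences of the 10. Capitals mark matches on either strand to the motifs TGACGTCA (cAMP response element), AACAAT (the core bound by SRY), AACAAAG (TCF and SRY-related factors), AGGTCA (nuclear receptor site), CAGGTG (E-box of E proteins), TGTGGT (RUNX), GGGCGG (GC box) and TATAAA (core promoter box).
Ccr9: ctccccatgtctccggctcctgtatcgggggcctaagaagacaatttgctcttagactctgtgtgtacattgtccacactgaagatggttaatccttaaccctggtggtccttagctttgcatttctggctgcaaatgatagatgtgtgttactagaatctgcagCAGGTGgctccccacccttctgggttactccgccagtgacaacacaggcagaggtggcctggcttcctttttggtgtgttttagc
Mcam: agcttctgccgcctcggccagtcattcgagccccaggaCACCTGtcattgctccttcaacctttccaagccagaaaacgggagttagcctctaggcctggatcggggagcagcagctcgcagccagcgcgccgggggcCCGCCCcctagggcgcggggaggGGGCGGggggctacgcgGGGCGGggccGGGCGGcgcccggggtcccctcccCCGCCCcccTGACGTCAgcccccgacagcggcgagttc
The windows differ in composition. That of Ccr9 was 51.3% G or C with 4 CG dinucleotides and held 1 match, an E-box at position -85 from the start. That of Mcam was 72.7% G or C with 29 CG dinucleotides. It held 5 GC boxes, an E-box on the minus strand at -212 and a cAMP response element at -29, with no overlap between matches. The medians over 32851 windows were 52.7% and 7. The GENCODE start of Mcam lies inside the stretch shown. The stretch of Ccr9, from chr9:123766961, lies within the GENCODE span of Ccr9, which starts far before it at chr9:123678439. The SRY core, the SRY-related motif and the nuclear receptor site matched in 0 of the 7 windows, against 10.7%, 5.85% and 16.3% of all windows. The cAMP response element was found in 1.79% of all windows, the E-box in 20.2%, the RUNX motif in 16.8%, the GC box in 35.7% and the TATA box in 13.6%. A match is a match of letters, and its absence says only that these letters are not in the window.

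Per length of exon, the 10 genes spanned a wide range of levels. Itgb7 had a mean of 150 CPM per kilobase over the 12 libraries, Selplg 120, Itgb2 99.2, Itgal 87.1 and Itgb1 62.9. Cd44 (14.5), Itga4 (8.86) and Cxcr4 (6.50) followed, and Mcam (0.905) and Ccr9 (0.662) were lowest. The place of Ccr9 rests on its annotated exon length of 10260 bases. The ranges of raw counts behind these levels were 17 to 68 per library for Mcam, 30 to 283 for Ccr9 and 126 to 273 for Cxcr4, and at least 1010 for each of the other 7 genes. Counting error therefore weighs more on Mcam and Ccr9 than on the integrins.

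**Figure D1:**
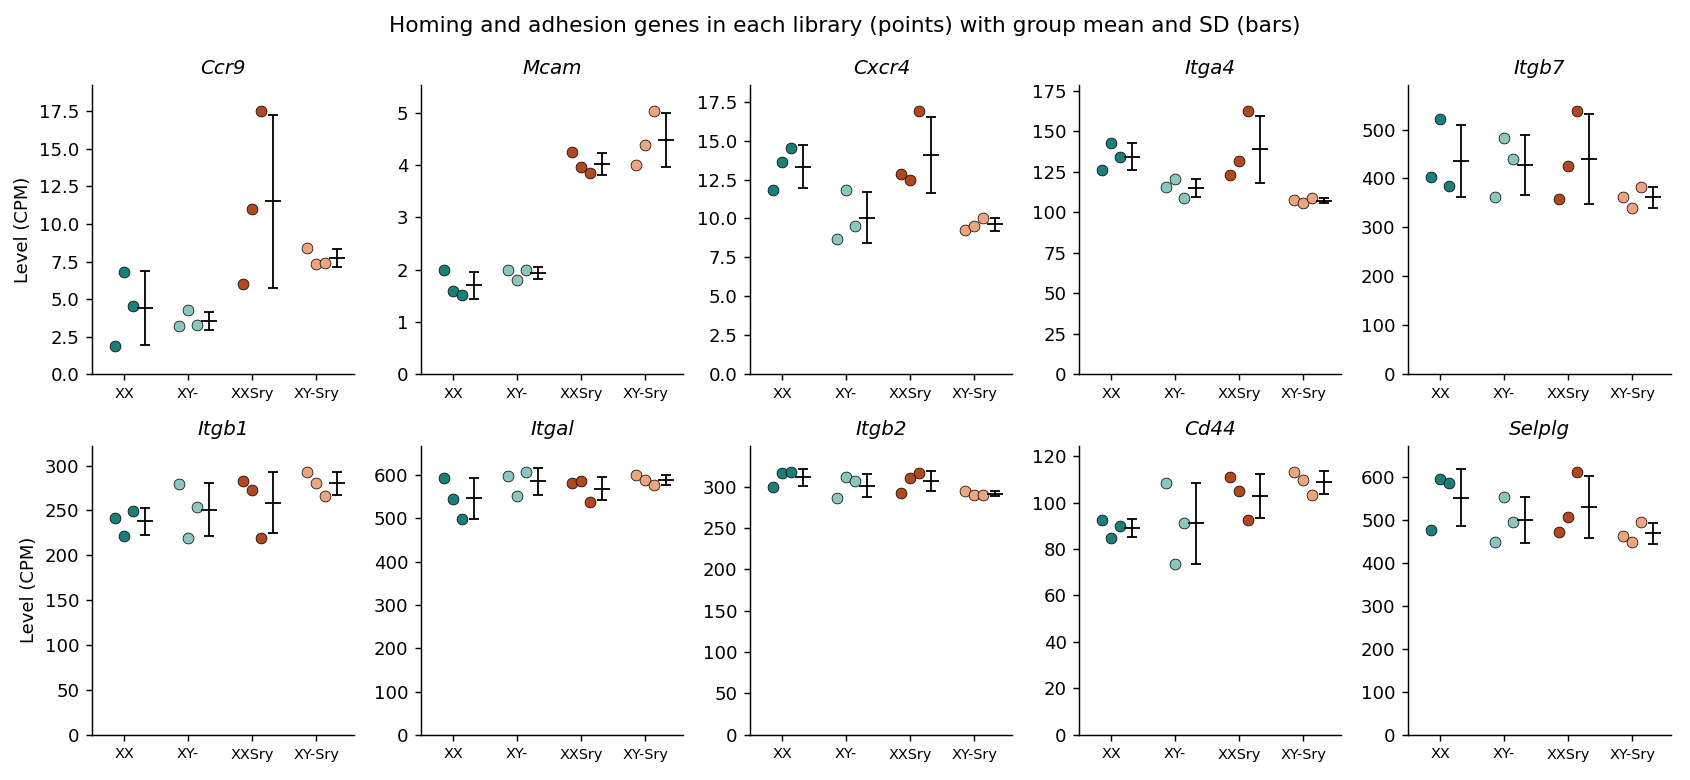
Level in CPM of each of the 10 genes in the 12 libraries (1 point per library, 3 per group), with the mean and SD of each group as a bar. Mcam is the gene whose 6 Sry-carrying libraries all lie above the 6 others, Ccr9 has its highest level of 17.5 CPM in XXSry replicate 3, and Itga4 is higher in XX than XY- and in XXSry than XY-Sry without overlap.

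Among the chemokine receptors, Ccr9, the receptor for CCL25, was at 1.87, 6.82 and 4.54 CPM in XX replicates 1 to 3 and at 3.18, 4.24 and 3.24 CPM in XY-. With Sry it was at 5.99, 11.0 and 17.5 CPM in XXSry and at 8.39, 7.36 and 7.40 CPM in XY-Sry. XX replicate 2 lay above XXSry replicate 1, so the Sry and non-Sry libraries overlapped. XX had a mean of 4.41 ± 2.48 CPM and XY- of 3.55 ± 0.60, against 11.5 ± 5.8 for XXSry and 7.71 ± 0.58 for XY-Sry (SD, n = 3). The SD within XX and XXSry was several times that within the XY- groups. The log2 difference between Sry-carrying and other libraries was 1.40 ± 0.37 with XX chromosomes and 1.12 ± 0.39 with XY- (edgeR estimate ± SE), and their mean was 1.26 ± 0.27. Without XXSry replicate 3 the mean was 1.04, and without XX replicate 2 it was 1.53.

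Reads assigned to Ccr9 share ground with other genes. Its annotated span overlaps Lztfl1, on the opposite strand, with 0 shared exon bases, and Gm17200, a noncoding RNA on the same strand that shares 269 exon bases. Both were higher with Sry, Lztfl1 by 0.43 ± 0.07 and Gm17200 by 0.46 ± 0.09 on the log2 scale (edgeR adjusted p = 0.0028 and 0.009). The mean level of Lztfl1 went from 18.9 to 25.5 CPM and that of Gm17200 from 6.24 to 8.53 CPM. AC165425.1 shares 1932 exon bases with Ccr9 and was at most 0.518 CPM. The strand setting of the counting was not given in the sources used here, and the part of these overlaps in the Ccr9 values was not tested.

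Cxcr4, the receptor for CXCL12, gave another pattern (chr1:128588199-128592293, minus strand). It was at 11.8, 13.6 and 14.5 CPM in XX and at 8.70, 11.9 and 9.53 CPM in XY-. In the Sry-carrying groups it was at 12.8, 12.5 and 16.9 CPM in XXSry and at 9.29, 9.49 and 10.1 CPM in XY-Sry. Each XXSry library lay above each XY-Sry library, as did 10.3% of tested genes, while XX and XY- overlapped through XX replicate 1 and XY- replicate 2. With Sry the log2 difference was 0.01 ± 0.10.

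Mcam was at 1.99, 1.59 and 1.51 CPM in XX and at 2.00, 1.80 and 1.99 CPM in XY-. It was at 4.25, 3.97 and 3.84 CPM in XXSry and at 4.01, 4.39 and 5.03 CPM in XY-Sry. The lowest Sry-carrying library, at 3.84 CPM, stood well above the highest other library, at 2.00 CPM. Mcam was the 1 gene of the 10 without overlap between the 6 Sry-carrying and 6 other libraries, and of all tested genes 1.19% were higher in this way. The Sry difference was 1.22 ± 0.18 on the log2 scale with XX chromosomes and 1.20 ± 0.17 with XY- (edgeR estimate ± SE), a mean of 1.21 ± 0.12. Leaving out 1 library at a time gave 1.17 to 1.28. Summed over libraries this rests on 386 counts with Sry and 160 without. Among the 12203 tested genes with a mean CPM of at least 2, the Sry differences of Ccr9 and Mcam ranked 2 and 3 from the highest. Among all 14585 tested genes they ranked 6 and 10. These ranks belong to how the 2 genes were chosen.

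Ccr9 and Mcam were only partly alike across libraries. The Pearson r of their log2 CPM over the 12 libraries was 0.64, a value that includes the group difference they share. The 5 genes most like Ccr9 by this r, of 12203 compared, were Il6st (0.96), Emp1 (0.95), Ahdc1 (0.95), Ldlrad4 (0.95) and Hip1r (0.94). Among those most like Mcam were Sry itself (0.97), Tmem154 (0.95), Zfp219 (0.95) and Rras2 (0.95), none of which is in the set of Ccr9. Sry had a mean of 107 CPM in the libraries carrying it and 0.010 CPM in the others. The r values of both sets include the Sry difference known when Ccr9 and Mcam were listed. They do not show that Mcam follows the level of Sry. Within XXSry, Ccr9 was highest in replicate 3 and Mcam was lowest there.

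The 5 integrin chains had log2 Sry differences from -0.12 to 0.14. Itgb7, the beta chain of the gut-homing alpha4 beta7 integrin (chr15:102215995-102231944), was at 402, 521 and 385 CPM in XX and at 362, 483 and 439 CPM in XY-. It was at 357, 425 and 537 CPM in XXSry and at 362, 339 and 383 CPM in XY-Sry, so that the groups overlapped, save XX and XY-Sry with nearest libraries at 385 and 383 CPM. The Sry difference was -0.12 ± 0.10 on the log2 scale. Ccr9, the other gene known for gut homing, stood at 1.26 on the same scale.

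Itga4, the alpha4 chain shared by alpha4 beta7 and alpha4 beta1 (chr2:79255426-79333123), was at 126, 143 and 134 CPM in XX and at 116, 120 and 109 CPM in XY-. It was at 123, 132 and 162 CPM in XXSry and at 107, 106 and 108 CPM in XY-Sry. Both XX groups lay above the XY- group of the same gonad type without overlap. Its Sry difference was -0.03 ± 0.06 on the log2 scale.

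Itgb1 (chr8:128685654-128733200), the beta1 chain that pairs with alpha4 to bind VCAM-1 and fibronectin, had group means from 238 ± 15 CPM in XX to 280.0 ± 13.1 CPM in XY-Sry (SD, n = 3) and a log2 Sry difference of 0.14 ± 0.07. Itgal (chr7:127296260-127335138) and Itgb2 (chr10:77530252-77565708) encode the chains of LFA-1, which binds ICAM-1. Itgal ranged from 498 to 607 CPM and Itgb2 from 286 to 318 CPM over the 12 libraries. Itgb2 varied least of the 10, with a highest level 1.11 times its lowest, against 9.38 times for Ccr9. Their log2 Sry differences were 0.03 ± 0.05 and -0.03 ± 0.04.

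Cd44 (chr2:102811141-102901665), a receptor for hyaluronan that is raised on activated and memory T cells, was at 92.7, 84.9 and 89.9 CPM in XX and at 109, 73.7 and 91.0 CPM in XY-. It was at 111, 105 and 92.4 CPM in XXSry and at 113, 109.5 and 103 CPM in XY-Sry. The Sry-carrying libraries overlapped the others through XY- replicate 1, and XX replicate 1 lay just above XXSry replicate 3. The log2 Sry difference was 0.23 ± 0.08, the third highest of the 10 genes, and 0.16 without XY- replicate 2 or 0.30 without XY- replicate 1. Selplg (chr5:113818536-113832644) encodes PSGL-1, the main ligand of P-selectin on leukocytes, and ranged from 447 to 611 CPM with a log2 Sry difference of -0.07 ± 0.07.

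**Figure D2:**
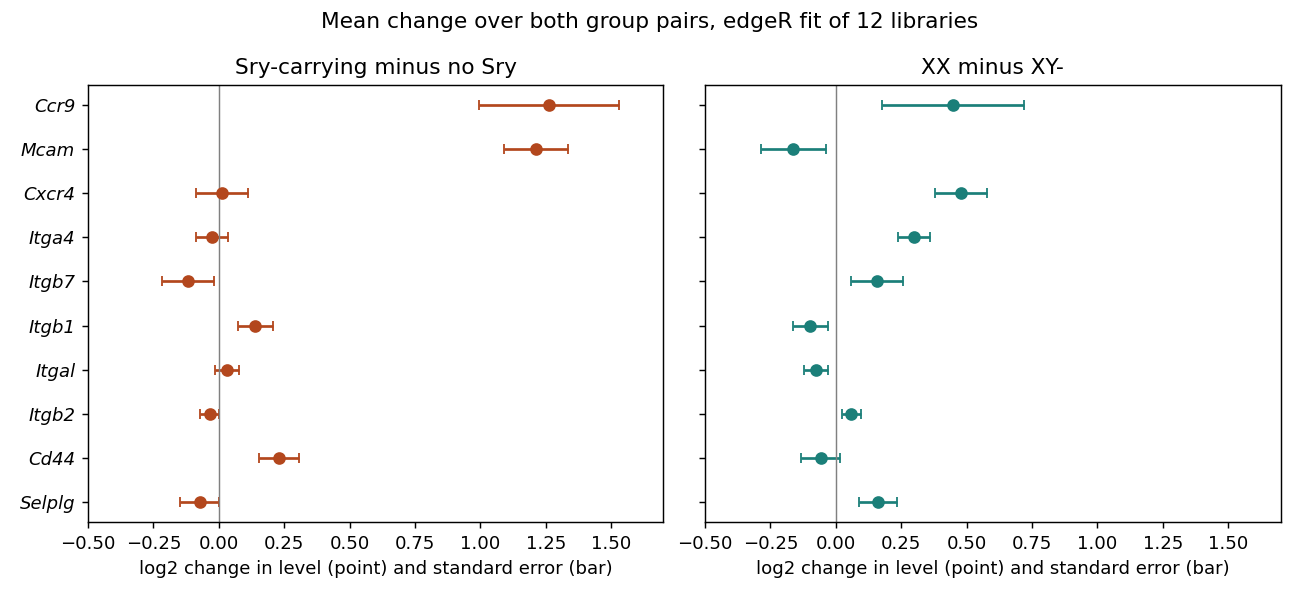
Log2 change of each of the 10 genes (points) with its SE (bars) from the edgeR fit, for Sry-carrying minus other libraries at left and XX minus XY- at right, each the mean over both pairs of groups. At left Ccr9 (1.26) and Mcam (1.21) lie apart from the other 8, and at right Cxcr4 (0.48), Ccr9 (0.45) and Itga4 (0.30) have the highest estimates, with the widest SE for Ccr9.

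The question of the sex chromosomes was whether cells with XX differ from cells with XY- when the gonads are of the same type. Ccr9, Cxcr4, Itga4, Itgb7, Itgb2 and Selplg had estimates above 0, higher with XX, in both gonad types, and none passed the threshold of an adjusted p under 0.05. The lowest p-values were those of Itga4 and Cxcr4. Itga4 was higher in XX by 0.22 ± 0.09 on the log2 scale without Sry and by 0.38 ± 0.09 with Sry, a mean of 0.30 ± 0.06 (edgeR adjusted p = 0.74, 0.29 and 0.080 over all tested genes). It was higher in each of the 3 XX libraries than in any XY- library, and likewise with Sry. Of all tested genes 4.67% were higher in XX in this way and 1.09% in both gonad types. Cxcr4 was higher by 0.41 ± 0.14 and 0.55 ± 0.14, a mean of 0.48 ± 0.10 (edgeR adjusted p = 0.74, 0.40 and 0.085).

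The edgeR test called 0 of the 10 genes between XX and XY-, 0 between XXSry and XY-Sry and 0 in their mean, where 0.103%, 0.103% and 0.137% of all tested genes were called. At an unadjusted p under 0.05 the numbers were 2, 2 and 3, against 6.37%, 10.4% and 14.2% of all tested genes. They were Cxcr4 and Itga4 each time and Selplg in the mean. DESeq2 called 0, 1 and 1 of the 10 genes, each time Itga4, beside 19, 24 and 78 of all tested genes. It gave no adjusted p for Ccr9 and Mcam in the first comparison, for Mcam in the second and for Ccr9, Mcam and Cxcr4 in the mean, so it did not assess these. Without XY- replicate 2, edgeR called both Itga4 and Cxcr4 in the mean (adjusted p = 0.040 and 0.020), and without XXSry replicate 1 it called Itga4 (adjusted p = 0.022). Of all genes edgeR called 91 without XY- replicate 2, against 20 in the main fit and 16 to 91 over the fits without 1 library.

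The other 8 estimates of the mean were smaller or less precise. Mcam stood at -0.16, with a 95% interval from -0.43 to 0.10, so a sex chromosome difference as large as its Sry difference lies outside the interval. The SE behind it was derived from the F statistic and may be too small at the low counts of Mcam. Between XX and XY- without Sry, this SE was 0.20 for Mcam, against 0.28 by DESeq2. For Ccr9 the estimate was 0.45 and the interval -0.13 to 1.03, which leaves room for differences in either direction. That estimate was 0.18 without XX replicate 2, 0.23 when XXSry replicate 3 was left out and 0.65 without XX replicate 1. Itgb7 stood at 0.16 (-0.06 to 0.37), Selplg at 0.16 (0.0045 to 0.32), Itgb1 at -0.10 (-0.24 to 0.05), Itgal at -0.07 (-0.17 to 0.02), Itgb2 at 0.06 (-0.02 to 0.14) and Cd44 at -0.06 (-0.22 to 0.10). These intervals were not adjusted for the number of genes.

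The exons of Itga4 overlap those of Cerkl, a gene on the opposite strand, by 1124 bases. Cerkl was at 13.5 to 21.5 CPM, and its group means of 20.7 CPM for XX against 17.4 for XY-, and of 18.3 for XXSry against 15.3 for XY-Sry, had the same order by sex chromosome as those of Itga4. Whether reads of one were counted for the other was not tested.

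Ratios between chains within a library need no library size. The log2 ratio of Itga4 to Itgal counts was -2.24, -1.93 and -1.89 in XX and -2.37, -2.19 and -2.48 in XY-. Among Sry-carrying libraries it was -2.25, -2.15 and -1.73 (XXSry) against -2.48, -2.48 and -2.41 (XY-Sry). XXSry and XY-Sry did not overlap, and XX and XY- overlapped through XX replicate 1 and XY- replicate 2. The mean sex chromosome difference of this ratio was 0.37 (two-sided exact permutation p = 0.01, 0.05 after adjustment over 5 ratios, with a smallest possible p of 0.005 for 400 arrangements). It did not fall under the threshold of 0.05, and without XX replicate 1 it was 0.43 (adjusted p = 0.025).

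Of the other ratios, Itgb7 to Itgb1, which sets the gut-homing beta chain against the beta1 chain, differed by 0.24 (exact permutation p = 0.265) and Itga4 to Itgb7 by 0.15 (p = 0.11, exact permutation). The differences were -0.14 for Itgal to Itgb2 and 0.16 for Itgb2 to Itgb1 (exact permutation p = 0.06 and 0.15). Adjusted over the 5 ratios, these 4 had p = 0.265, 0.183, 0.15 and 0.188 by exact permutation. The counts of Itgb7 were 1.21 to 2.45 times those of Itgb1 over the 12 libraries, and the log2 Sry difference of that ratio was -0.26.

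Whether the Sry difference itself varied with the sex chromosomes was tested as an interaction. For Ccr9 the difference between the XX and XY- estimates was 0.28 ± 0.54 on the log2 scale, and for Mcam 0.02 ± 0.25. The edgeR test called 0 of the 10 genes and 0 (0%) of all genes, with 0 of the 10 and 385 of all genes (2.64%) at an unadjusted p under 0.05, and DESeq2 called 0. The 95% interval of the interaction ran from -0.88 to 1.44 for Ccr9 and from -0.50 to 0.54 for Mcam.

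The 10 genes also varied between libraries of the same group, and some of them did so together. Itgb7 was highest in XX replicate 2, XY- replicate 2, XXSry replicate 3 and XY-Sry replicate 3, the highest library of each group. Itga4 and Selplg were highest in the same 4 libraries. Itgb1 and Cd44 were lowest in the same 4. Of all tested genes 6.29% were highest and 6.08% were lowest in all 4 of them, so the pattern is not confined to these genes. Itgal was lowest in 3 of the 4 and Ccr9 and Cxcr4 highest in 3, while Mcam was highest in 1 and lowest in 2. Itgb7 stood 0.27 above its group mean on the log2 CPM scale in XX replicate 2 and 0.31 above in XXSry replicate 3, and Cd44 stood at -0.29 in XY- replicate 2.

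**Figure D3:**
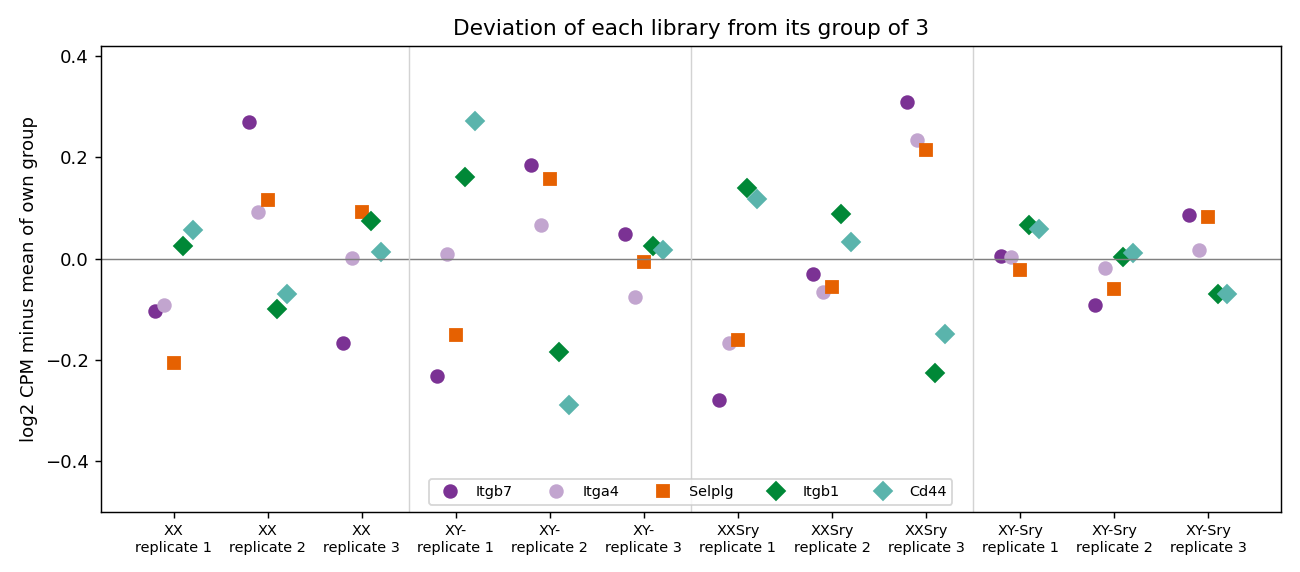
Log2 CPM of 5 genes in each library minus the mean of its own group of 3 (1 marker per gene and library, groups divided by vertical lines). In 4 libraries, 1 per group, Itgb7, Itga4 and Selplg are at their highest and Itgb1 and Cd44 at their lowest.

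The same libraries were also the highest for some other genes of cell movement, in shares that ranged over the 10 wider lists from 0 of 10 genes to 25%. Of 20 tested genes of egress from lymph nodes and G-protein signalling, 5 were highest in all 4 libraries. S1pr1, the receptor that guides T cells out of lymph nodes, was at 66.1, 157 and 108 CPM in XX and at 59.3, 118 and 78.2 CPM in XY-. It was at 76.5, 101 and 151 CPM in XXSry and at 68.7, 62.2 and 76.3 CPM in XY-Sry. Its highest XX library was thus more than double its lowest. Of 24 tested genes of integrin activation, 6 were highest in all 4, among them Rasgrp2, which activates Rap1, and 2 were lowest. Its level was 52.1, 87.4 and 56.5 CPM in XX and 49.3, 63.8 and 95.4 CPM in XXSry. The other lists had lower shares, with 4 of 19 cytoskeleton genes, 1 of 14 chemokine receptors and 1 of 17 retinoid and TGF-beta genes highest in all 4. Of 13 other integrin subunits 1 was highest and 2 were lowest. These libraries were picked by their Itgb7 level, and no test was made of the pattern.

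A wider set of 206 genes of T cell trafficking in 10 lists by function gave the surroundings of the 10 genes, with 162 of them tested. In the mean Sry comparison edgeR called 26 of these, 16 higher and 10 lower with Sry. That is 16.0%, against 5.44% of all tested genes, of which 2.13% were higher and 3.31% lower. The median log2 difference was 0.03 over the 162 genes and -0.00089 over all genes. The lists were drawn up with earlier results of these libraries known, so the share is a description. The call was kept in all 12 fits that left out 1 library for 12 genes, Ccr8, Cxcr2, Ccrl2, Selp, Lama5, Jaml, Cd9, Cd5, Rgs1, Myh9, Rarg and Rdh10. It ended in 1 fit for Lgals9 and Cd6 and in 4 to 9 fits for the other 12, and no called gene changed sign. The number called in these fits fell to 13 when XY-Sry replicate 1 was left out, to 14 for XXSry replicate 1 or XY-Sry replicate 2 and to 15 for XXSry replicate 2. It was 42 when XXSry replicate 3 was left out. The number called among all tested genes moved from 793 in the same fits, to 358 for XY-Sry replicate 1, 433 for XXSry replicate 1, 402 for XY-Sry replicate 2, 370 for XXSry replicate 2 and 1282 for XXSry replicate 3. Without XY- replicate 2, 18 of the wider genes and 427 of all genes were called.

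**Figure D4:**
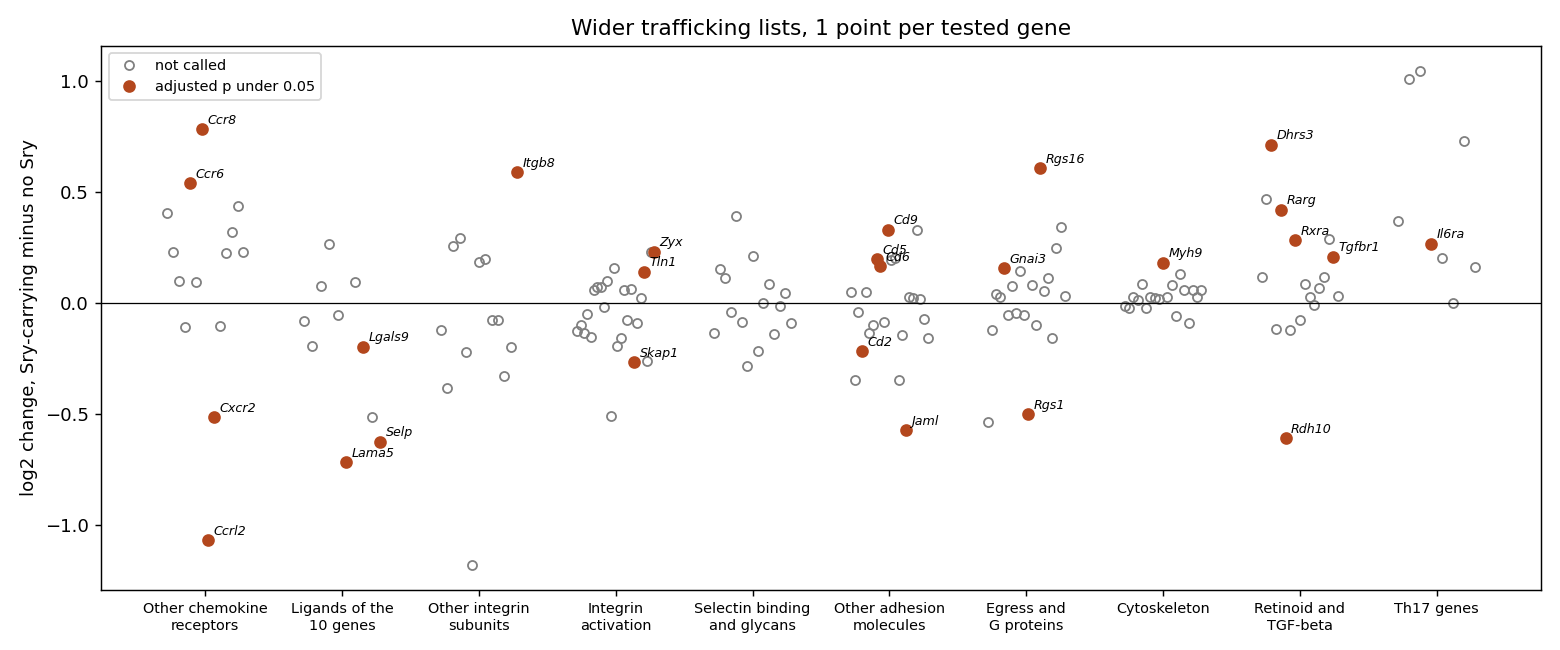
Log2 change with Sry (mean over both sex chromosome types) of the 162 tested trafficking genes, 1 point per gene, in 10 lists. Filled, named points are the 26 genes with an edgeR adjusted p under 0.05, which include Ccr8 (0.78) at the top and Ccrl2 (-1.07) at the bottom of the chemokine receptors.

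Of 14 other chemokine receptors, 2 rose and 2 fell with Sry, and the list median was 0.23. Ccr8, a receptor of regulatory and Th2 cells, had means of 10.5 ± 1.2 CPM for XX and 11.8 ± 2.7 for XY-, against 17.4 ± 4.5 for XXSry and 21.2 ± 2.4 for XY-Sry (SD, n = 3). Its difference was 0.78 ± 0.13 on the log2 scale (edgeR adjusted p = 0.0044). Ccr6, a receptor of Th17 cells, rose by 0.54 ± 0.15 (edgeR adjusted p = 0.044), a call that ended in 9 of the 12 fits without 1 library. Ccrl2, an atypical receptor that binds chemerin, fell by 1.07 ± 0.23 and Cxcr2 fell by 0.52 ± 0.11 (edgeR adjusted p = 0.015 for both). Ccr7, the receptor for entry into lymph nodes, had the highest level of the list and a difference of 0.09 ± 0.05 (edgeR adjusted p = 0.34).

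Of 10 tested genes for ligands of the 10 receptors, 3 fell and 0 rose. Selp, which encodes P-selectin, the partner of PSGL-1, was at 7.87 to 12.1 CPM without Sry and at 5.47 to 6.56 CPM with it. These ranges did not overlap, and Selp fell by 0.62 ± 0.09 (edgeR adjusted p = 0.0018). Lama5, a laminin chain, fell by 0.72 ± 0.15, and Lgals9, whose product galectin-9 binds CD44, fell by 0.20 ± 0.04 (edgeR adjusted p = 0.014 and 0.013). The call of Lgals9 ended without XY-Sry replicate 1.

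Of 13 other integrin subunits, 1 was called. Itgb8, the beta chain that with alphaV activates TGF-beta, rose by 0.59 ± 0.16 (edgeR adjusted p = 0.043), a call that ended in 8 of these 12 fits and with the replicate number as a block (edgeR adjusted p = 0.052). Of 24 genes of integrin activation, Tln1 and Zyx rose and Skap1 fell, calls that ended in 8, 4 and 8 of the 12 fits. Of 15 genes of selectin binding, most of them for enzymes that build selectin ligands, edgeR called 0. At an unadjusted edgeR p under 0.05 there were 6 of these 15, against 21% of all tested genes. Of 22 other adhesion molecules, Cd9 rose by 0.33 ± 0.06, Cd5 by 0.20 ± 0.04 and Cd6 by 0.17 ± 0.04 (edgeR adjusted p = 0.0044, 0.0079 and 0.015). Jaml, a junctional adhesion molecule, fell by 0.57 ± 0.10 (edgeR adjusted p = 0.0054). Cd2 fell by 0.22 ± 0.06 (edgeR adjusted p = 0.043), a call that ended in 8 of the 12 fits. The call of Cd6 ended without XY-Sry replicate 2.

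Rgs1, an inhibitor of G-protein signalling that damps chemokine receptors, fell by 0.50 ± 0.09 (edgeR adjusted p = 0.0047), and Gnai3 and Rgs16 rose, with calls that ended in 7 and 8 of the 12 fits. Among 19 genes of the cytoskeleton, Myh9, the heavy chain of nonmuscle myosin, rose by 0.18 ± 0.04 (edgeR adjusted p = 0.011). Retinoic acid is a signal known to induce CCR9 and the alpha4 beta7 integrin in mouse T cells. Of 17 genes of retinoid and TGF-beta signalling 4 rose and 1 fell. Rarg, a retinoic acid receptor, was at 11.6 to 17.8 CPM without Sry and 17.5 to 23.9 CPM with it, a difference of 0.42 ± 0.09 (edgeR adjusted p = 0.012). Rdh10, which makes retinal, fell by 0.61 ± 0.11 (edgeR adjusted p = 0.0073). Dhrs3, Rxra and Tgfbr1 rose, with calls that ended in 8, 8 and 7 fits. Of 8 Th17 genes, listed for the link of MCAM to these cells in humans, Il6ra rose by 0.27 ± 0.07 (edgeR adjusted p = 0.033), a call that ended in 6 fits, and 7 of 8 differences were positive.

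In the mean sex chromosome comparison edgeR called 0 of the 162 trafficking genes, while 41 had an unadjusted edgeR p under 0.05, as did 14.2% of all tested genes. DESeq2 called 1. For the interaction both tools called 0, with 3 at an unadjusted edgeR p under 0.05, against 2.64% of all tested genes. Among markers of other T cells, edgeR called 1 of 5 tested genes of the CD8 and NK list in the mean Sry comparison. It called 1 of 5 of the thymocyte list and 0 of 5 of the gamma delta and NKT list, against 5.44% of all tested genes. Cd8a was at 2.93 to 6.49 CPM without Sry and at 1.41 to 2.45 CPM with it, a difference of -1.11 ± 0.18 (edgeR adjusted p = 0.0037), while Cd8b1 stood at 0.15 ± 0.07 (edgeR adjusted p = 0.24). Eomes (-0.39), Prf1 (-0.12) and Klrd1 (-0.08) were not called. Themis, a gene of thymocytes that mature T cells also make, fell by 0.41 ± 0.06 (edgeR adjusted p = 0.0011). In its list Rag1 (-0.85), Dntt (-0.31), Cd1d1 (-0.0054) and Arpp21 (0.18) were not called. Of the 10 genes of the CD8 and NK list, 6 were under 1 CPM in all libraries, and its sum was 42.8 to 83.1 CPM without Sry and 46.4 to 59.5 CPM with it. The part of these genes in the results above was not tested.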

How the data were processed

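RNA of 12 libraries was sequenced. The deposited table held raw counts per Ensembl gene and library, per the file headers and its whole-number values. The tools bcl2fastq 2.17 and the build mm10 are named in the submitters' processing notes, while no aligner, counter, annotation or strand setting was (not given in the sources used here). Groups were taken from the labels. Of 39017 identifiers 37693 matched GENCODE M21, and the other 1324 held 0.597% of counts.

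Counts were fitted with edgeR 4.0.16 in R 4.3.3: TMM scaling, filterByExpr (groups, at least 10 counts, 15 in total), 1 term per group over all libraries, quasi-likelihood F-test, Benjamini-Hochberg over 14585 genes, calls at an adjusted p under 0.05. DESeq2 1.42.0, other scalings and filters, a replicate block and fits without 1 library were alternatives. The code was tested on simulated data. CPM used TMM-scaled library sizes, and levels between genes were divided by exon length. Chain ratios (0.5 added to counts) were tested by exact permutation in Python 3.11.15. Precision at low levels is set by the counts given with each gene. Libraries of a group differed beyond sampling noise (chi-square per degree of freedom 2.47 to 18.0), so each was counted once.

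The members and lists were chosen with earlier results of these data known. Named were all 10 genes, called genes of the wider lists (at most 6 a list) with the 2 highest in level, the 5 genes most like Ccr9 and Mcam, and marker genes. Other genes, such as S1pr1, Rasgrp2, Lztfl1 and Gm17200, were chosen after their values were seen. A few genes under the rule are not reported here.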

Additional observations from a re-analysis of the deposited data

How the results depend on the processing

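No call of the 10 genes ended under an alternative, since none was made. The direction of each estimate was kept under all scalings and filters that gave one. Mcam had no estimate under the filter on a mean count of at least 50, which left it out. With no filter on low counts edgeR called 4 of the 10 genes between XXSry and XY-Sry and 5 in the mean sex chromosome comparison. Of all genes it called 368 and 652 there, against 15 and 20 in the main fit. It called 23 wider trafficking genes in the sex chromosome mean. In the Sry mean it called 44 wider genes and 1494 of all genes, the latter against 793 in the main fit. DESeq2 called 1 of the 10 genes between XXSry and XY-Sry and 1 in the sex chromosome mean, beside 24 and 78 of all genes. It called 1 wider gene in the sex chromosome mean. Fits without 1 library called 0 to 2 of the 10 genes in the sex chromosome mean, 0 to 2 wider genes there and 13 to 42 in the Sry mean. All genes called in these fits numbered 16 to 91 in the sex chromosome mean and 358 to 1282 in the Sry mean. The Itga4 to Itgal ratio gave 0.29 to 0.43 without 1 library. The causes were not tested.

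Signs turned in fits without 1 library, all in estimates that were not called. Over the 12 fits the XX minus XY- estimate without Sry ran from -0.22 to 0.71 for Ccr9, -0.12 to 0.12 for Itgb7, -0.17 to 0.0057 for Itgb1 and -0.16 to 0.11 for Cd44, and the mean from -0.12 to 0.016 for Cd44. The interaction ran from -0.16 to 0.80 for Ccr9, -0.054 to 0.16 for Mcam, -0.0059 to 0.24 for Cxcr4, -0.12 to 0.069 for Itgb1, -0.014 to 0.12 for Itgal, -0.00037 to 0.063 for Itgb2, -0.20 to 0.080 for Cd44 and -0.085 to 0.11 for Selplg.

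The replicate numbers showed no clear pairing of libraries. Deviations from the group means correlated at -0.161 to 0.227 between libraries of the same number (median -0.005, 18 pairs). The median was 0.0195 over 36 pairs of unlike number, and 3 of 12 libraries correlated best with their own number. Batches shared by some libraries were not tested beyond a fit with a replicate block. With the replicate number as a block, edgeR called 0 of the 10 genes in the sex chromosome comparisons, 30 wider genes and 944 of all genes in the Sry mean, against 26 and 793 without it. The block ended the call of Itgb8 (edgeR adjusted p = 0.052). At 17 to 68 counts a library for Mcam, small differences between XX and XY- were not detectable.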

Other observations

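Genes beside Ccr9 and Mcam on chromosome 9 were examined within 500 kilobases on each side, a window chosen after the data were seen. Of 13 tested neighbours of Ccr9, 2 were higher with Sry (Lztfl1 and Gm17200) and 0 lower, and of 24 neighbours of Mcam, 1 was higher and 2 were lower. Thy1, which encodes the T cell surface protein Thy-1, fell by 0.40 ± 0.07 on the log2 scale, from a mean of 680 CPM without Sry to 518 CPM with it (edgeR adjusted p = 0.0072). Slc37a4, a glucose-6-phosphate transporter, fell by 0.37 ± 0.10, and Ddx6, an RNA helicase, rose by 0.14 ± 0.03 (edgeR adjusted p = 0.046 and 0.022). The lowest and highest neighbours of Mcam thus lay at -0.40 and 0.25, far from 1.21 for Mcam itself. On chromosome 9 as a whole, 54 of 779 tested genes were called, 6.93% against 5.44% of all tested genes. Over the autosomes and X this share ran from 3.47% on X to 7.96% on chromosome 15. Near Cxcr4, R3hdm1 fell by 0.23 ± 0.05 (edgeR adjusted p = 0.022), and near Itga4 0 of 3 were called by edgeR.

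Among the Th17 genes, values chosen after they were seen were log2 Sry differences of 1.01 for Il17a and 1.05 for Il17f, neither of which was called by edgeR.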
